A study of Rattus norvegicus with 4 samples.

Results

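Gene expression in the irradiated left striatum was set against that in the un-irradiated right striatum of the same group of rats, each taken relative to control animals. The comparison covers all 4 arrays of the series and 14878 genes. The left value of a gene is the log2 ratio of left irradiated striatum to the left striatum of control rats. The right value is the log2 ratio of right un-irradiated striatum to the right striatum of control rats. The difference between sides is the left value minus the right value, so a positive difference means that the irradiated side lay further above its control than the un-irradiated side did. It was computed between the arrays with the experimental RNA in Cy5 (array 1 of each side) and again between those with it in Cy3 (array 2 of each side). The deposited table does not state its log base or direction, so signs follow the dyes in the labels, with the sign of array 2 turned. The text gives the mean of both orientations and, after ±, the distance of either orientation from that mean.

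The animals were adult male Wistar rats, 4 in the study. The irradiated rats received a central maximum of 60 Gy over 30 min in 1 striatum from a gamma knife, a device that converges many cobalt beams on a small target, through a collimator of 4 mm, and tissue was taken 16 h later. No source used here says whether control rats were anaesthetised and mounted in the frame as the irradiated rats were. The labels give both arrays of a side the same RNA sources and 1 replicate number, and no source used here says how many animals entered an RNA, so each side has 1 replicate, ± is a technical spread, and no difference carries a p-value. The beam was aimed at a striatum, and each sample is a whole dissected striatum. In such bulk RNA, fewer cells of a type and less RNA per cell cannot be told apart.

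The striatum is the input nucleus of the basal ganglia. Most of its neurons are GABAergic projection neurons, which carry D1 or D2 dopamine receptors and make enkephalin, dynorphin or substance P. Ionising radiation breaks DNA and activates p53, which switches on cell-cycle brakes and death genes, and glia and vessels of irradiated brain are known to induce NF-kappaB targets, chemokines and interferon-stimulated genes. The striatum lies under the cortex and beside the lateral ventricle, so a dissection can carry cortical neurons, meninges or choroid plexus with it.

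A gene was counted as higher or lower on the left when both orientations gave a difference past 1.5-fold, that is 0.585 in log2, and of the same sign. By this criterion 386 of 14878 genes (2.59%) were higher on the left than on the right and 336 (2.26%) were lower. A further 657 genes (4.42%) were past 1.5-fold in both orientations but in opposite directions. Had the deposited values been turned already, these 657 would be the passing genes, 277 higher and 380 lower on the left, and 0 of the 386 and 336 would pass. Across genes, which are not independent of each other, the orientations correlated at a Pearson r of 0.0167 and a Spearman rho of 0.109 (14878 genes). The typical difference was small, with a median absolute value of 0.19 beside a median technical spread of 0.14. Of all genes, 29.8% were above 0 in both orientations and 27.1% were below 0 in both. The 722 genes that passed in either direction (4.85%) were thus not many more than the 657 opposed ones, and a single passing gene carries little weight without a second probe or a wider pattern.

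**Figure D1:**
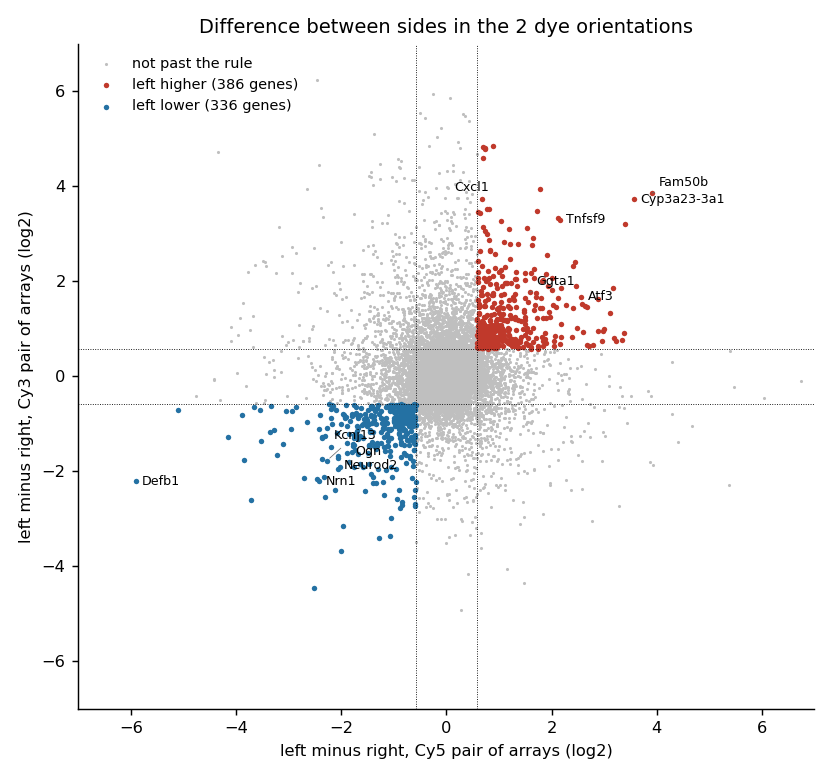
Difference between sides (left minus right, log2) in the Cy5 pair of arrays (x axis) and in the Cy3 pair (y axis), 1 point per gene for 14878 genes. Red points mark the 386 genes past 1.5-fold higher on the left in both orientations, blue points the 336 genes past it lower, and dotted lines the threshold of 0.585. The grey cloud is round rather than drawn out along a diagonal, and Cxcl1 lies high in the Cy3 pair and near 0 in the Cy5 pair.

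Over all 43628 features, named or not, 1551 (3.56%) were higher on the left, 1276 (2.92%) lower and 2772 (6.35%) opposed. Among the 5654 genes with 2 or more probes 108 (1.91%) were higher, 82 (1.45%) lower and 134 (2.37%) opposed. Probes that read the same gene could be set against each other. Over 13825 pairs of probes of 1 gene, the mean of both orientations correlated at a Spearman rho of 0.135. The signed distance of the Cy5 orientation from that mean correlated at 0.0231. Had the deposited values been turned already, that distance would be the difference between sides. Which reading holds was not tested. When 1 probe of a gene was higher on the left, 63.6% of the gene's 935 other probes also differed upward, where 54.3% of such probes lay above 0 for any gene. For probes lower on the left the share was 55.3% of 624, beside 45.7% for any gene. Of the passing genes, 278 of 386 higher and 254 of 336 lower ones were read by 1 probe and had no such second reading. Of the 108 higher genes with several probes, every probe passed on its own in 7 and 1 probe alone in 81, and of the 82 lower genes in 6 and 61. Both left arrays lay clear of both right arrays for 213 of the 386 higher genes (55.2%) and for 248 of the 336 lower genes (73.8%). Over all 14878 genes, passing or not, the left arrays lay clear above in 13.1% and clear below in 12.3%. The passing genes were picked by the same arrays.

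Of 36 gene lists the interferon, cortical and meningeal ones had the medians furthest from 0. Interferon-stimulated genes were higher on the left in 9 of 43 measured members (20.9%, beside 2.59% of all genes), and the median member differed by 0.33, beside 0.02 over all genes. Markers of cortical excitatory neurons and of meninges were lower on the left in 10 of 42 members each (23.8%, beside 2.26% of all genes), with medians of -0.34 and -0.39. Of the 10 cortical ones, Cck and Vip also stand in the interneuron and peptide list, Nr4a2 in the immediate early gene list and Nrn1 in the growth factor list. The next medians were those of p53 targets (0.30), oligodendrocyte precursors (-0.22) and striatal projection neurons (0.21). These lists were chosen with results of these arrays known, and their counts describe the arrays without testing them.

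**Figure D2:**
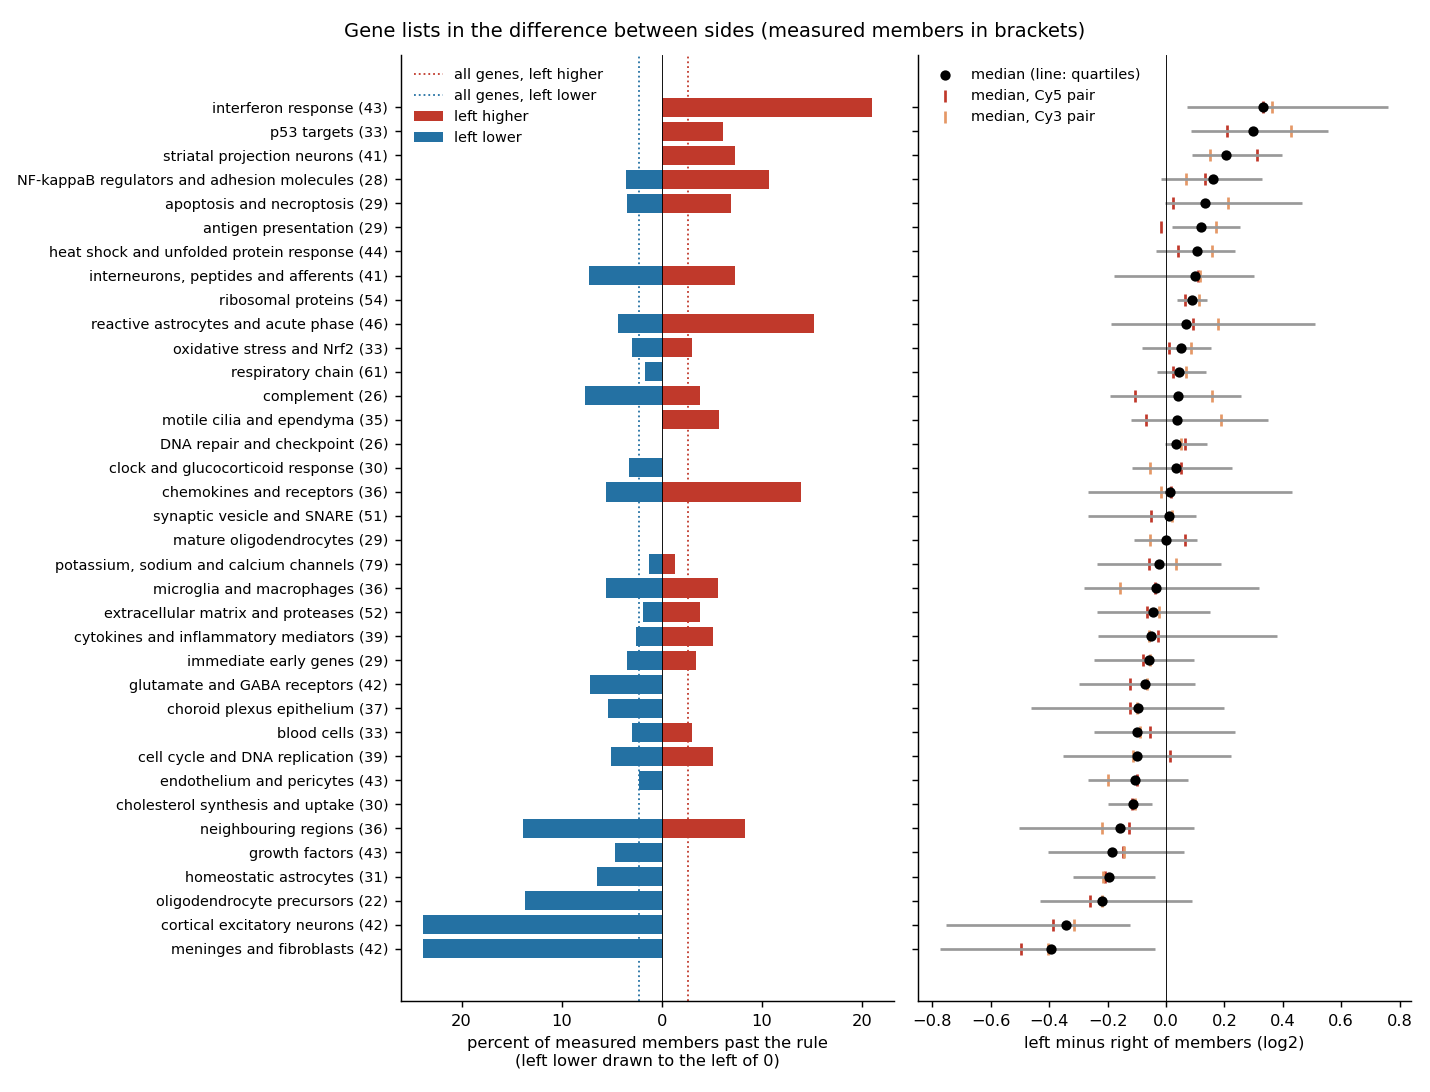
Gene lists ordered by median difference between sides. Left panel: percent of measured members past the criterion, left higher in red and left lower in blue, with dotted lines at the percentages over all genes. Right panel: median difference (black point) with its quartiles (grey line) and the medians of the Cy5 and Cy3 pairs (ticks), in log2. The interferon, cortical and meningeal lists stand at the ends, at 0.33, -0.34 and -0.39.

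Interferons induce genes that sense, bind or degrade viral RNA and protein, and the 9 that passed include several such classes. Isg15, a ubiquitin-like protein that is attached to other proteins, stood at 1.64 and 1.96 on left arrays 1 and 2, against 0.69 and 0.96 on right arrays 1 and 2, a difference of 0.97 ± 0.03. Gbp2, a guanylate-binding GTPase, stood at 1.60 and 1.38 on the left, against 0.74 and 0.30 on the right, a difference of 0.97 ± 0.11. Mx1, a dynamin-like antiviral GTPase, stood at 0.62 and 0.63 on the left, against -0.22 and -0.16 on the right, a difference of 0.81 ± 0.03. For all of these genes the left arrays lay above the right arrays with no overlap, and Isg15 was past 1.5-fold above control on the un-irradiated side as well.

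Gbp4, a second guanylate-binding protein, had left values of 1.42 and 1.55, against 0.07 and 0.94 on the right, and differed by 0.98 ± 0.37. Parp9, an ADP-ribosyltransferase partner in interferon signalling, had left values of 0.79 and 0.59, against 0.14 and -0.46 on the right, and differed by 0.85 ± 0.20. Usp18, the protease that removes Isg15 from its targets, had left values of -0.09 and 0.44, against -0.72 and -0.34 on the right, and differed by 0.71 ± 0.07. All 3 separated the sides without overlap, and in Usp18 more of the difference lay in right values below control than in left values above it.

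The other passing members were less clean. Ifih1, the RNA sensor MDA5, stood at 3.22 and -0.73 on left arrays 1 and 2, against 2.40 and -2.67 on the right, a difference of 1.38 ± 0.55. Igtp, an immunity-related GTPase, stood at 1.35 and -0.42 on the left, against 0.33 and -1.88 on the right, a difference of 1.24 ± 0.22. Ifit1, which binds foreign RNA caps, stood at 0.85 and -0.80 on the left, against -0.75 and -1.73 on the right, a difference of 1.26 ± 0.33. In each of these genes the left arrays disagreed with each other by more than the sides differed, and the left and right arrays overlapped. Of the 9 passing interferon members 6 (66.7%) had no overlap, beside 55.2% of all genes that passed as higher on the left. Over all genes, passing or not, the share was 13.1%.

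Across the whole interferon list, 27 of 43 members were above 0 in both orientations and 5 were below 0 in both, beside 29.8% and 27.1% of all genes. Past 1.5-fold in opposite directions were 4 of the 43, a larger share than the 657 of 14878 among all genes (4.42%). Lower on the left were 0, beside 2.26% of all genes. Irf7, the master transcription factor of the type I response, missed the criterion narrowly: it stood at 1.40 and 0.88 on the left, against 0.83 and -0.24 on the right, with orientation differences of 0.57 and 1.12. The left median of the list was 0.24 and the right median 0.05. On the left 7 members were past 1.5-fold above control and 0 below, beside 1.18% and 1.03% of all genes. On the right 1 was above and 1 below, beside 1.71% and 1.46% of all genes.

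The start-site regions of the passing genes are shown because many interferon-stimulated genes are bound by STAT and IRF factors at a paired GAAA element. The window runs from 250 bases before to 50 bases after the RefSeq start site (GRCr8), read on the gene's own strand. The letters GAAANNGAAA, searched on both strands, were found in 21 of the 34 measured interferon genes that have a window in the RefSeq table (61.8%), beside 413 of 12254 measured genes (3.37%) and 1034 of all 27457 windows (3.77%). Of the 9 passing interferon genes 6 had a window and 4 of these held a match, printed here in capitals, while Mx1 and Parp9 held none. Gbp2 lies at chr2:234005477-234005776 on the plus strand with its match beginning at -31, Gbp4 at chr2:233978236-233978535 on the plus strand with its match at -10, Ifih1 at chr3:67683919-67684218 on the minus strand with its match at -59, and Igtp at chr10:42874797-42875096 on the plus strand with its match at -103.
Gbp2: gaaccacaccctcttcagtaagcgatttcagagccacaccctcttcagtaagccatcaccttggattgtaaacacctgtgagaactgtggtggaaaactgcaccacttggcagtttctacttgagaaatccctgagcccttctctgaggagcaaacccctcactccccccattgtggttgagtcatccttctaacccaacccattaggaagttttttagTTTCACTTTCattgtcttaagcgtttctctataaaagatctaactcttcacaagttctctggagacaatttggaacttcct
Gbp4: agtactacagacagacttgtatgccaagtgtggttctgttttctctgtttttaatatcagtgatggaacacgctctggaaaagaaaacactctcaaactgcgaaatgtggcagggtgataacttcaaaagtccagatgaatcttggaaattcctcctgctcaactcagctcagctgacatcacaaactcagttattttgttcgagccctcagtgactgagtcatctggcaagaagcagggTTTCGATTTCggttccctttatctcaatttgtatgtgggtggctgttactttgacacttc
Ifih1: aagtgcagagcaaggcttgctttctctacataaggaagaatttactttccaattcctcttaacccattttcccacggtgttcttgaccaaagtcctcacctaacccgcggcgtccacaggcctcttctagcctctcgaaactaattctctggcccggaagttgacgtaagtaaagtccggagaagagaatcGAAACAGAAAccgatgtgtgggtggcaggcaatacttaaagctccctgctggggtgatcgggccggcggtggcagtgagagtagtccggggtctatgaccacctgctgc
Igtp: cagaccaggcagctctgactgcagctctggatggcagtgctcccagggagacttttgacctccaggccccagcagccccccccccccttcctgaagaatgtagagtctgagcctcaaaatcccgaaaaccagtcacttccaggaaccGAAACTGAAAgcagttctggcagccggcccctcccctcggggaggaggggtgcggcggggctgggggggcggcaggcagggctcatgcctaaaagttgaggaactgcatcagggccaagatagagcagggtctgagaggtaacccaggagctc

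In Gbp2 and Gbp4 the capitals read the element on the opposite strand, and in Ifih1 and Igtp on the gene's strand. Among all genes higher on the left 15 of 306 windows held the letters (4.9%) and among those lower on the left 12 of 261 (4.6%), both near the share of all windows. A match describes the sequence and does not show that a factor binds there.

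**Figure D3:**
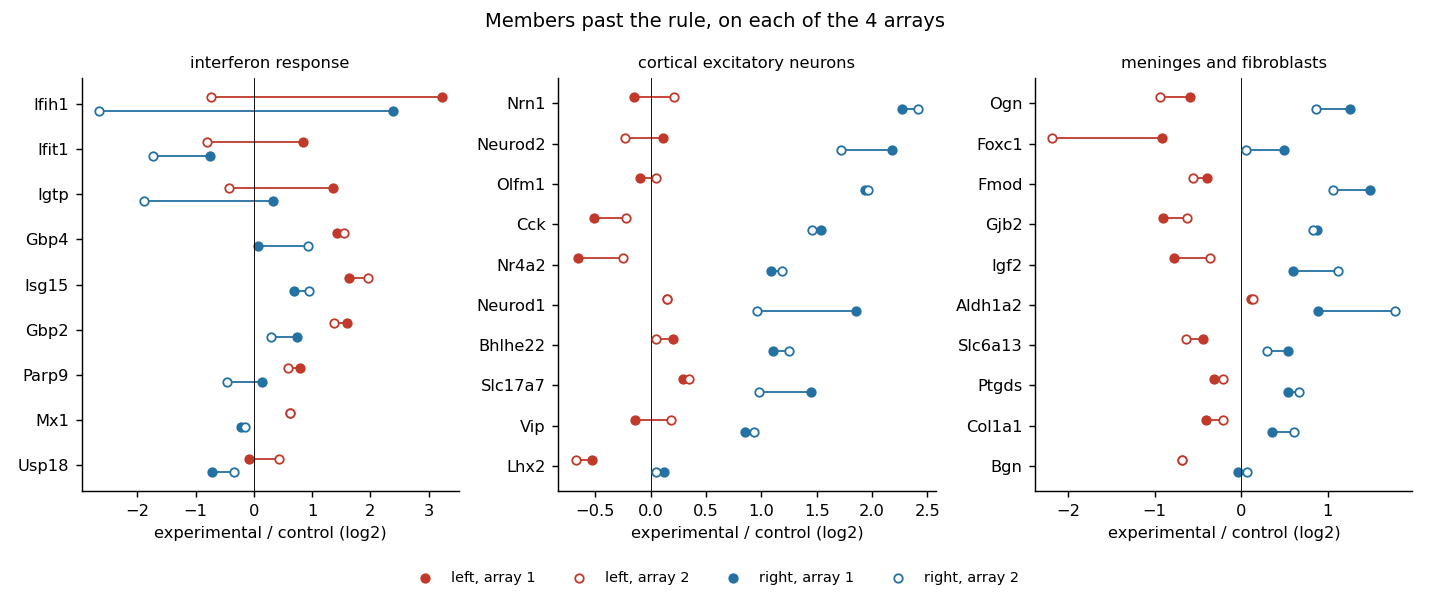
Members past the criterion in 3 lists, with the value on each array (log2 of experimental over control) along the x axis, left arrays in red above right arrays in blue, array 1 filled and array 2 open, and a line joining the arrays of a side. Left and right do not overlap for all 10 cortical and all 10 meningeal markers, while in the interferon panel Ifih1, Ifit1 and Igtp overlap.

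Among 33 measured targets of p53, 7 were past 1.5-fold above control on the left (beside 1.18% of all genes) and 5 on the right (beside 1.71%). In the difference between sides 2 were higher on the left (6.06%, beside 2.59% of all genes) and 0 lower. Above 0 in both orientations were 20 of the 33 members, beside 29.8% of all genes. Ccng1 (cyclin G1) stood at 2.02 and 1.99 on left arrays 1 and 2, against 1.32 and 1.35 on right arrays 1 and 2, and passed with orientation differences of 0.70 and 0.64. Mdm2, the ubiquitin ligase that degrades p53, stood at 0.49 and 1.05 on the left, against -0.09 and 0.52 on the right, and lay just outside the criterion with orientation differences of 0.58 and 0.53. Both genes therefore differed by nearly the same amount, 0.67 ± 0.03 and 0.55 ± 0.02, on opposite sides of the threshold.

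Fas, the death receptor, stood at 2.26 and 2.53 on the left, against 1.81 and 1.28 on the right, a difference of 0.85 ± 0.40 that did not pass. Cdkn1a, the cell-cycle inhibitor p21, stood at 2.05 and 1.96 on the left, against 1.92 and 1.04 on the right, a difference of 0.53 ± 0.39 that did not pass. In both genes the left arrays lay above the right arrays, and it was right array 2 that lay lower than right array 1. Perp, a p53 target of desmosomes, passed at 0.85 ± 0.05, but its 3 probes differed between sides by -0.42, 1.05 and 1.92, and its arrays overlapped between sides. Mgmt, which repairs alkylated guanine, stood at 2.40 and 2.33 on the left, against 2.08 and 1.64 on the right, and did not pass. In either direction 0 of 26 DNA repair genes passed, beside 4.85% of all genes.

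Inflammatory signalling genes passed in both directions. Of 36 chemokines and receptors 5 were higher on the left (13.9%) and 2 lower (5.56%), beside 2.59% and 2.26% of all genes, with a median difference of 0.01. Ccl2, the main monocyte attractant, stood at 1.83 and 1.49 on the left, against 1.05 and -0.74 on the right, a difference of 1.51 ± 0.72, and its 3 probes differed by 0.16, 1.84 and 2.52. Ccl3, another monocyte attractant, stood at 2.17 and 1.99 on the left, against 1.52 and 1.31 on the right, a difference of 0.66 ± 0.01. Cxcl10, an interferon-induced attractant of T cells, stood at 3.29 and 0.33 on the left, against 1.80 and -0.93 on the right, a difference of 1.37 ± 0.11. Neither of its 2 probes passed on its own. In the Cy5 and Cy3 pairs 1 probe differed by -0.69 and 2.32 and the other by 3.66 and 0.20. Ccl3 was steady across the dyes and above control on both sides, whereas the arrays of Cxcl10 overlapped between sides.

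Ccl7, a monocyte attractant encoded beside Ccl2 in the chemokine cluster, passed at 1.5 ± 0.62, and Cxcr2, the receptor of neutrophil-attracting chemokines, at 1.03 ± 0.42. The chemokines lower on the left were Cxcl12, a constitutive factor of brain vessels and meninges, at -0.73 ± 0.08, and the receptor Ccr1 at -1.65 ± 0.02. Cxcl1, a neutrophil attractant, stood at 1.72 and 1.69 on the left, against 1.68 and -2.28 on the right, and its difference of 2.0 ± 1.97 came from 1 array. In the Cy5 pair alone, Cxcl1 differed by 0.04.

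Of 28 NF-kappaB regulators and adhesion molecules 3 were higher on the left (10.7%) and 1 lower (3.57%), beside 2.59% and 2.26% of all genes (median 0.16). Bcl3, an inhibitor-like cofactor of NF-kappaB p50 and p52, stood at 2.38 and 2.40 on the left, against 1.42 and 1.33 on the right, a difference of 1.02 ± 0.06. Traf1, an adaptor of TNF receptors, passed at 0.90 ± 0.05, with left values of 0.07 and 1.28 that overlapped right values of -0.78 and 0.33. Ikbke, a kinase of the NF-kappaB and interferon pathways, stood at 3.74 and -0.45 on the left, against 0.34 and -3.66 on the right, a difference of 3.30 ± 0.09 between sides whose arrays overlapped. Madcam1, an addressin of mucosal vessels, was lower on the left at -2.8 ± 1.05, below its control on the left and above it on the right.

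Among 39 cytokines and inflammatory mediators 2 were higher on the left (5.13%) and 1 lower (2.56%), near the shares of all genes (median -0.05). Tnfsf9, the ligand of the T cell costimulatory receptor 4-1BB, stood at 3.82 and 3.01 on the left, against 1.66 and -0.29 on the right, a difference of 2.73 ± 0.57, with no overlap. Osmr, the oncostatin M receptor, passed at 1.10 ± 0.41, with right values of -1.07 and -0.70 below control, and Il15, a cytokine of natural killer and T cells, was lower at -0.91 ± 0.32. Il1b stood at 1.07 and 1.09 on the left, against 1.07 and 0.13 on the right, and Il6 at 0.38 and 0.91 on the left, against -0.02 and -0.06 on the right. Neither Il1b (0.48 ± 0.49) nor Il6 (0.68 ± 0.29) passed.

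Of stress and death genes, Atf3, a stress-induced transcription factor, passed: it stood at 3.71 and 2.04 on the left, against 1.14 and 0.36 on the right, a difference of 2.12 ± 0.45, with no overlap. Fos, an immediate early gene, had left values of 1.37 and 0.83, against -0.49 and 0.37 on the right, and its Cy3 difference of 0.46 kept it from passing. Of 29 apoptosis genes 2 were higher on the left (6.9%) and 1 lower (3.45%), beside 2.59% and 2.26% of all genes. Tnfrsf1a (the main TNF receptor) was higher at 0.86 ± 0.01, Bcl2a1 (an inhibitor of mitochondrial apoptosis) at 2.15 ± 1.22, and Hrk (a pro-apoptotic BH3 protein of neurons) was lower at -0.65 ± 0.03. In the oxidative stress list 1 of 33 members was higher and 1 lower (3.03% each), near the 2.59% and 2.26% of all genes. Gclc, the catalytic subunit for glutathione synthesis, was higher at 0.99 ± 0.30 with arrays that overlapped between sides. Slc7a11, the cystine transporter, was lower at -1.13 ± 0.27. In the heat shock list 0 of 44 members passed and in antigen presentation 0 of 29, beside 4.85% of all genes in either direction.

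Glial genes passed in both directions. Of 46 reactive astrocyte and acute phase genes 7 were higher (15.2%) and 2 lower (4.35%) on the left, beside 2.59% and 2.26% of all genes (median 0.07). Cebpd, an acute-phase transcription factor, stood at 1.77 and 2.08 on the left, against 1.05 and 1.0 on the right, a difference of 0.90 ± 0.18, and S100a10, an annexin partner, differed by 1.18 ± 0.31, with probes at 0.37 and 1.99. Gfap, the astrocytic intermediate filament, stood at 0.75 and 1.56 on the left, against 0.98 and 1.21 on the right, with a difference of 0.06 ± 0.29. Gfap was thus above control on both sides by about as much, while Cebpd was further above it on the left.

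Emp1, a membrane protein of reactive astrocytes, was higher on the left at 1.74 ± 0.92. It stood at 0.93 and 0.11 on the left, against 0.11 and -2.55 on the right, so left array 2 did not clear right array 1. Of its probes, at 1.15 and 2.33, only the second passed on its own. Lcn2, an iron-carrier-binding lipocalin, was lower on the left at -1.06 ± 0.13, but its 2 probes differed by -2.58 and 0.46. Ggta1, which builds the alpha-gal sugar, was above control on the left (0.79 and 0.86) and below it on the right (-0.80 and -0.91), a difference of 1.68 ± 0.09 over 3 probes that ranged from 0.29 to 2.59. Its relative Ggta1l1 differed the other way, at -1.11 ± 0.26, and how far the probes of these related genes read each other's RNA was not tested. Markers of resting astrocytes leaned lower on the left, with 21 of 31 below 0 in both orientations, beside 27.1% of all genes. Lower past the criterion were 2 (6.45%, beside 2.26% of all genes), the connexin Gjb6 at -0.93 ± 0.08 and the potassium channel Kcnj10 at -0.86 ± 0.03. Kcnj10 stood at -0.89 and 0.18 on the left, against 0.00 and 1.01 on the right, so its arrays overlapped between sides.

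A marker each of resting microglia and of oligodendrocyte precursors was lower on the left. P2ry12, the ADP receptor of resting microglia, stood at -2.43 and -2.91 on the left, against -1.14 and -0.97 on the right, a difference of -1.62 ± 0.32. Pdgfra, a receptor that oligodendrocyte precursors need to divide, stood at -2.32 and -2.58 on the left, against -0.83 and -0.96 on the right, a difference of -1.55 ± 0.06. Both genes, each read by 1 probe, were below control on all 4 arrays, and the left arrays lay below the right arrays with no overlap.

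Other microglial genes did not follow P2ry12 together. Cx3cr1, Aif1 and Csf1r, which also mark microglia, differed by -0.07 ± 0.08, -0.14 ± 0.03 and -0.08 ± 0.32 and did not pass. The scavenger receptor Msr1 was higher on the left at 1.27 ± 0.03 and the galectin Lgals3, a marker of activated phagocytes, at 1.18 ± 0.37. Msr1 stood at 0.08 and 1.47 on the left, against -1.22 and 0.22 on the right, so its arrays overlapped between sides. The complement subunit C1qb passed at -1.11 ± 0.01, but its 2 probes differed by -1.85 and -0.37, and its partners C1qa and C1qc stood at -0.44 and -0.53 and did not pass, while the protease C1s was higher at 0.78 ± 0.05.

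Among 22 precursor markers 3 were lower on the left (13.6%, beside 2.26% of all genes) and 0 higher. Besides Pdgfra these were the sialidase Neu4, at -1.53 and -1.37 on the left, against -0.73 and -0.51 on the right, and the transcription factor Sox8 at -1.12 ± 0.26. Cspg4, the proteoglycan NG2, differed by -0.47 ± 0.02 and did not pass. Of 29 markers of mature oligodendrocytes 0 passed, beside 4.85% of all genes in either direction, and their median difference was 0.00. Of 43 endothelial and pericyte markers 1 was lower on the left (2.33%, near the 2.26% of all genes) and 0 were higher. The lower one was the transcription factor Sox17, at -1.01 ± 0.39.

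Markers of cortical excitatory neurons differed between sides mainly through the un-irradiated side. Of the 42 members, 11 were past 1.5-fold above control on the right and 0 below, beside 1.71% and 1.46% of all genes. On the left 1 was above and 1 below, beside 1.18% and 1.03%. Neurod2, a factor that drives cortical excitatory neuron genes, stood at 0.11 and -0.23 on the left, against 2.18 and 1.72 on the right, a difference of -2.01 ± 0.05. Nrn1 (neuritin), a membrane-bound neurite growth factor, stood at -0.15 and 0.21 on the left, against 2.27 and 2.42 on the right, a difference of -2.32 ± 0.10. Olfm1, a secreted neuronal olfactomedin, stood at -0.09 and 0.05 on the left, against 1.94 and 1.96 on the right, a difference of -1.97 ± 0.06. For each of these genes the irradiated left striatum lay close to its control on both arrays, and the un-irradiated right striatum lay above its own on both.

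The vesicular glutamate transporter Slc17a7 was lower on the left at -0.90 ± 0.26, the transcription factor Neurod1 at -1.26 ± 0.44, the transcription factor Bhlhe22 at -1.05 ± 0.15 and the neuropeptide Cck at -1.87 ± 0.19. Of the 2 probes of Bhlhe22, 1 differed by -2.05 and the other by -0.05. Nr4a2, a nuclear receptor of claustrum and deep cortex, differed by -1.59 ± 0.16, the neuropeptide Vip by -0.87 ± 0.12 and the patterning factor Lhx2 by -0.69 ± 0.04. Cck and Vip are also members of the interneuron and peptide list, so the 10 passing members are not all specific to excitatory neurons. All 10 passing cortical markers separated the sides without overlap, as did 73.8% of all lower genes and 12.3% of all genes, passing or not. Below 0 in both orientations were 28 of 42 members, beside 27.1% of all genes. Slc17a7 and Vip had 2 probes each, at -1.42 and -0.38 for Slc17a7 and at -1.47 and -0.27 for Vip. Over the 42 members the left values ranged from -0.68 to 0.80 with 17 above 0, and the right values from -0.68 to 2.35 with 32 above 0. Neurod6 and Tbr1, which also define cortical excitatory neurons, differed by -0.78 ± 0.24 and -0.23 ± 0.09 and did not pass.

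Meningeal and fibroblast genes moved on both sides. Ogn (osteoglycin), a matrix proteoglycan, stood at -0.59 and -0.94 on the left, against 1.26 and 0.87 on the right, a difference of -1.83 ± 0.03 in which both of its probes shared. Fmod (fibromodulin), a collagen-binding proteoglycan, stood at -0.39 and -0.56 on the left, against 1.49 and 1.06 on the right, a difference of -1.75 ± 0.14. Foxc1, a transcription factor of meningeal development, stood at -0.91 and -2.18 on the left, against 0.49 and 0.06 on the right, a difference of -1.82 ± 0.42. Ogn was past 1.5-fold in opposite directions on its sides, Fmod was past it on the right alone and Foxc1 on the left alone.

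The remaining passing members were the connexin Gjb2 at -1.63 ± 0.16, the growth factor Igf2 at -1.42 ± 0.05, the retinoic acid enzyme Aldh1a2 at -1.21 ± 0.44, the GABA transporter Slc6a13 at -0.96 ± 0.03, the prostaglandin D synthase Ptgds at -0.87 ± 0.01, the collagen Col1a1 at -0.79 ± 0.03 and the proteoglycan Bgn (biglycan) at -0.70 ± 0.05. All 10 separated the sides without overlap, beside 73.8% of all lower genes and 12.3% of all genes, passing or not. The 2 probes of Ptgds differed by -1.75 and 0.00, and the 3 probes of Col1a1 by -1.67, -0.38 and -0.32. Over the 42 members the left values ranged from -1.55 to 1.65 with 15 above 0, and the right values from -1.02 to 1.33 with 33 above 0. Decorin (Dcn), with 2 probes, differed by -1.17 ± 0.64 and did not pass. The choroid plexus list behaved less uniformly, and 2 of 37 members passed, as lower on the left (5.41%, beside 2.26% of all genes). The potassium channel Kcnj13 was lower on the left at -2.02 ± 0.25. Transthyretin (Ttr), the main secreted protein of that epithelium, differed by -0.62 ± 0.26.

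**Figure D4:**
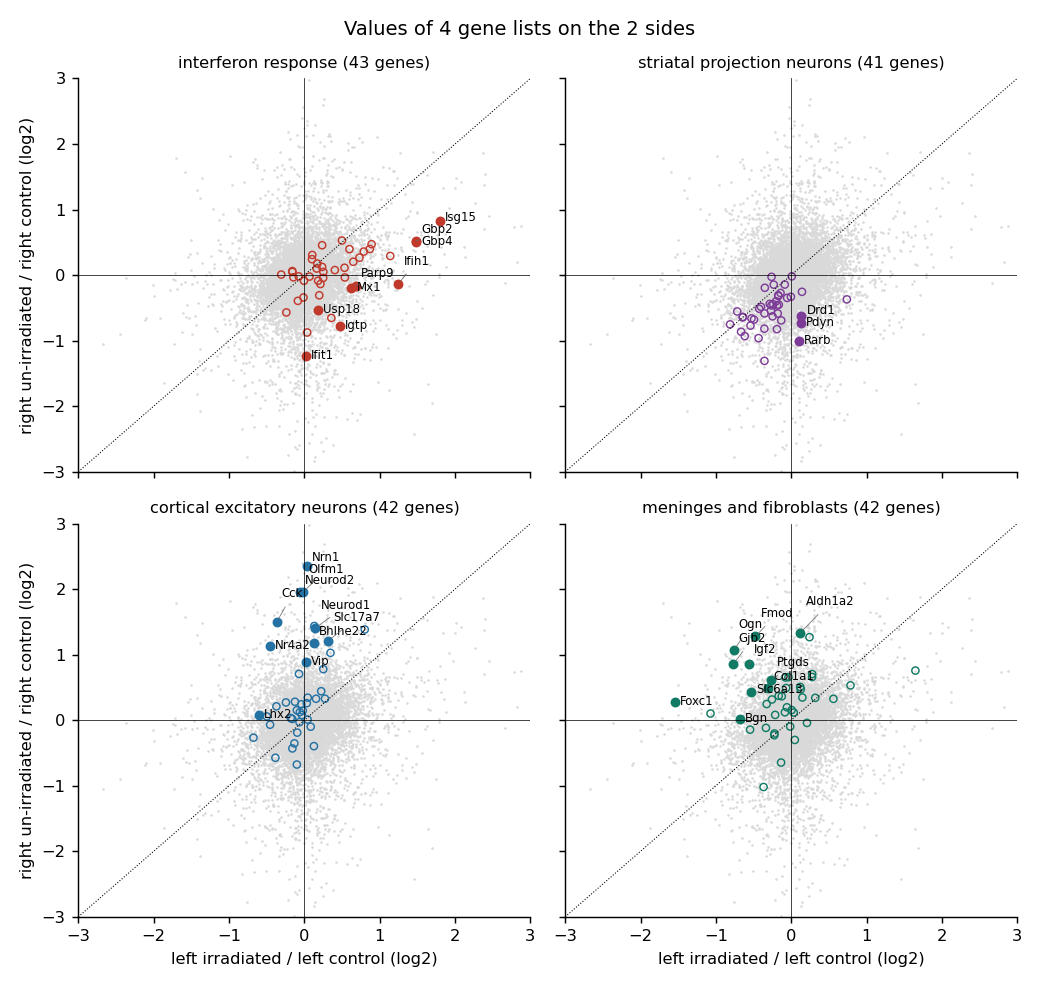
Left value (x axis, left irradiated over left control) against right value (y axis, right un-irradiated over right control), both in log2, for 4 gene lists over all genes in grey. Filled and named points passed the criterion, open points did not, the dotted line marks equal values, and genes beyond the axes are not drawn. Cortical markers are raised along the right axis near 0 on the left, and all 41 projection neuron markers lie below 0 on the right.

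Markers of striatal projection neurons, the cells that define the tissue, had lower values on the right than on the left in 35 of 41 members, and 3 passed (7.32%, beside 2.59% of all genes). Past 1.5-fold below control were 2 members on the left and 8 on the right, beside 1.03% and 1.46% of all genes. All 41 measured members had right values below 0, from -1.31 to -0.02, and left values ran from -0.81 to 0.74 with 6 above 0. Because the table holds ratios without intensities, how abundant these markers were in any RNA is not given here. The medians were -0.25 on the left and -0.54 on the right, and 30 of 41 members were above 0 in both orientations of the difference. Drd1, the D1 dopamine receptor, stood at 0.20 and 0.07 on the left, against -0.64 and -0.62 on the right, a difference of 0.76 ± 0.07. Pdyn, the dynorphin precursor of D1 neurons, stood at 0.20 and 0.06 on the left, against -0.68 and -0.80 on the right, a difference of 0.87 ± 0.01. Rarb, a retinoic acid receptor of the striatum, stood at 0.30 and -0.11 on the left, against -0.43 and -1.60 on the right, a difference of 1.11 ± 0.38, with probes at 0.11 and 2.11.

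The direct-pathway genes Drd1 and Pdyn thus lay within 0.20 of control on the left arrays and below it on the right arrays. Drd2, the D2 receptor, and Penk, the enkephalin precursor, which mark the indirect pathway, differed by 0.29 ± 0.02 and 0.28 ± 0.18 and did not pass, nor did Ppp1r1b (DARPP-32) at 0.20 ± 0.09. Whether the pathways differ from each other was not tested. Higher cortical and meningeal markers and lower projection neuron markers on the right occurred in the same right-side RNA pair, and the part of tissue composition in any gene's difference was not tested. The right values enter every difference given here, including those of the interferon genes.

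Neuropeptides and other neuronal genes also separated the sides. Cartpt, the CART peptide precursor, stood at 0.45 and 0.40 on the left, against -1.10 and -1.17 on the right, a difference of 1.56 ± 0.01. Nts (neurotensin) differed by 0.76 ± 0.02 and Pmch, the melanin-concentrating hormone precursor, by 0.73 ± 0.05, both higher on the left. Pvalb (parvalbumin), a calcium buffer of fast-spiking interneurons, was lower on the left at -0.83 ± 0.08, while somatostatin (Sst) and Npy differed by 0.12 ± 0.14 and 0.12 ± 0.01. With the peptides Cck and Vip given above, 3 of 41 members of the interneuron and peptide list (7.32%) were higher on the left and 3 were lower, beside 2.59% and 2.26% of all genes.

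Of 42 glutamate, GABA and glycine receptor genes 3 were lower on the left (7.14%, beside 2.26% of all genes) and 0 higher: the GABA-B subunit Gabbr2 at -0.96 ± 0.05, the GABA rho subunit Gabrr1 at -0.80 ± 0.07 and the glycine receptor subunit Glra1 at -1.21 ± 0.03. The 2 probes of Glra1 differed by -2.55 and 0.12, and its arrays overlapped between sides. Gabbr2 stood at 0.19 and 0.10 on the left, against 1.11 and 1.11 on the right. The ionotropic glutamate receptor subunits Gria1, Gria2 and Grin2b differed by 0.24, 0.23 and 0.10 and did not pass. Of 51 synaptic vesicle genes 0 passed, and of 54 ribosomal protein genes 0 passed, beside 4.85% of all genes in either direction. Of the ribosomal genes 38 were above 0 in both orientations, beside 29.8% of all genes, at a median of 0.09. Of 79 potassium, sodium and calcium channel genes 1 was higher and 1 lower (1.27% each, beside 2.59% and 2.26% of all genes). Kcnk2 was higher (1.26 ± 0.48, with probes at 0.27 and 2.25). Kcnt2 was lower (-0.71 ± 0.11), with left values of -0.63 and 0.41 that overlapped right values of 0.19 and 1.01.

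Among cell cycle genes, in a tissue of mostly postmitotic cells, 2 were higher and 2 lower of 39 (5.13% each, beside 2.59% and 2.26% of all genes). Tyms, thymidylate synthase, stood at 1.75 and 1.36 on the left, against 0.63 and 0.58 on the right, a difference of 0.95 ± 0.17. Kif20b, a mitotic kinesin, was higher at 2.02 ± 0.13 with all 4 arrays below control. The spindle protein Tacc3 was lower on the left at -2.35 ± 1.54 and the checkpoint kinase Bub1b at -0.97 ± 0.15, of whose 3 probes 1 differed by -2.93 and the others by -0.14 and 0.15. Mki67, a general proliferation marker, differed by 0.37 ± 0.01 and did not pass.

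Of the genes ranked by the smaller of their differences in the 2 orientations, 15 of the top 15 higher and 14 of the top 15 lower were read by 1 probe. Fam50b stood at 1.73 and 1.19 on the left, against -2.18 and -2.67 on the right, a difference of 3.88 ± 0.03. Cyp3a23-3a1, a drug-metabolising cytochrome best known from liver, stood at 2.02 and 1.35 on the left, against -1.53 and -2.38 on the right, a difference of 3.64 ± 0.09. Akr1c2, a steroid-metabolising reductase, stood at 1.18 and 1.26 on the left, against -1.28 and -0.63 on the right, a difference of 2.18 ± 0.28. These genes were above control on both left arrays and below it on both right arrays.

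Others of the top 15 reached their difference although arrays of a side lay on opposite sides of control. Cd28, a T cell costimulatory receptor, stood at 2.37 and -1.17 on the left, against -0.04 and -3.49 on the right, a difference of 2.36 ± 0.04. Pcdhb12, a clustered protocadherin, stood at 2.41 and -0.19 on the left, against 0.50 and -2.73 on the right, a difference of 2.23 ± 0.32. In 98 of the 386 higher genes (25.4%) and 34 of the 336 lower genes (10.1%), the arrays of each side lay on both sides of 0.

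On the lower side the top 15 held 3 olfactory receptors, a vomeronasal receptor and the epithelial defensin Defb1 beside Nrn1, Neurod2, Olfm1, Ogn and Kcnj13. Defb1 stood at 0.09 and -0.42 on the left, against 6.0 and 1.79 on the right, a difference of -4.06 ± 1.85. Over the whole olfactory receptor family, whose members are near-identical in places, 35 of 1040 genes were higher (3.37%), 38 were lower (3.65%) and 86 were past 1.5-fold in opposite directions (8.27%), beside 2.59%, 2.26% and 4.42% of all genes.

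Some passing genes had several probes that all differed the same way. Maip1, a mitochondrial protease-interacting protein, was higher on the left at 1.91 ± 0.10, with probes at 1.70 and 2.13, and Carmil1, an actin-capping regulator, at 2.23 ± 0.89, with probes at 2.21 and 2.25. Maip1 stood at 1.85 and -0.24 on the left, against 0.03 and -2.25 on the right, so its arrays overlapped between sides. Lower on the left were Chst9, a sulfotransferase, at -1.75 ± 0.10 with probes at -2.01 and -1.48, C1ql3, a synaptic C1q-like protein, at -1.79 ± 0.52 with probes at -1.93 and -1.64, and the collectin Colec12 at -1.29 ± 0.16 with probes at -1.44 and -1.15. In total 88 genes higher and 69 lower on the left had several probes that all differed in the same direction, by any amount. Every probe passed on its own in 7 of the higher and 6 of the lower genes. Htr1a, the serotonin 1A receptor, was lower at -1.39 ± 0.02 with probes at -1.87 and -0.91.

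Each difference can come from the left, the right or both. Of the 386 genes higher on the left, 257 (66.6%) were past 1.5-fold from control on neither side, 77 (19.9%) were below control on the right alone, 40 (10.4%) were above control on the left alone, 5 were past it in opposite directions and 7 in the same direction. Of the 336 genes lower on the left, 184 (54.8%) were past it on neither side, 115 (34.2%) were above control on the right alone, 28 (8.33%) were below control on the left alone, 6 in opposite directions and 3 in the same direction. More passing genes were therefore past 1.5-fold on the un-irradiated side alone than on the irradiated side alone, in both directions.

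Past 1.5-fold from control were 175 higher (1.18%) and 153 lower genes (1.03%) on the left and 255 higher (1.71%) and 217 lower genes (1.46%) on the right. Read from the sides, 51 of the 175 genes above control on the left (29.1%) were also higher on the left than on the right, as were 83 of the 217 genes below control on the right (38.2%). Of the 153 genes below control on the left 36 (23.5%) were lower on the left than on the right, and so were 122 of the 255 genes above control on the right (47.8%). These classes use the same arrays as the difference itself and describe where it lies.

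Genes past 1.5-fold in the same direction on both sides show what the difference removes. There were 32 genes above control on both sides, with median values of 1.39 (left) and 1.28 (right), and 20 below control on both, with medians of -1.11 (left) and -1.18 (right). Of the 32, 6 were higher on the left than on the right, namely Bcl3, Ccl3, Ccng1, Cebpd, Isg15 and the phospholipase Pla1a (1.17 ± 0.02). Qrfpr, a neuropeptide receptor named after its values were seen because it was the 1 lower on the left, stood at 0.59 and 0.77 there, against 1.28 and 1.39 on the right. Of the 20, Pdgfra and P2ry12 were lower on the left, and the olfactory receptor Or4c3 was the 1 higher there.

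**Figure D5:**
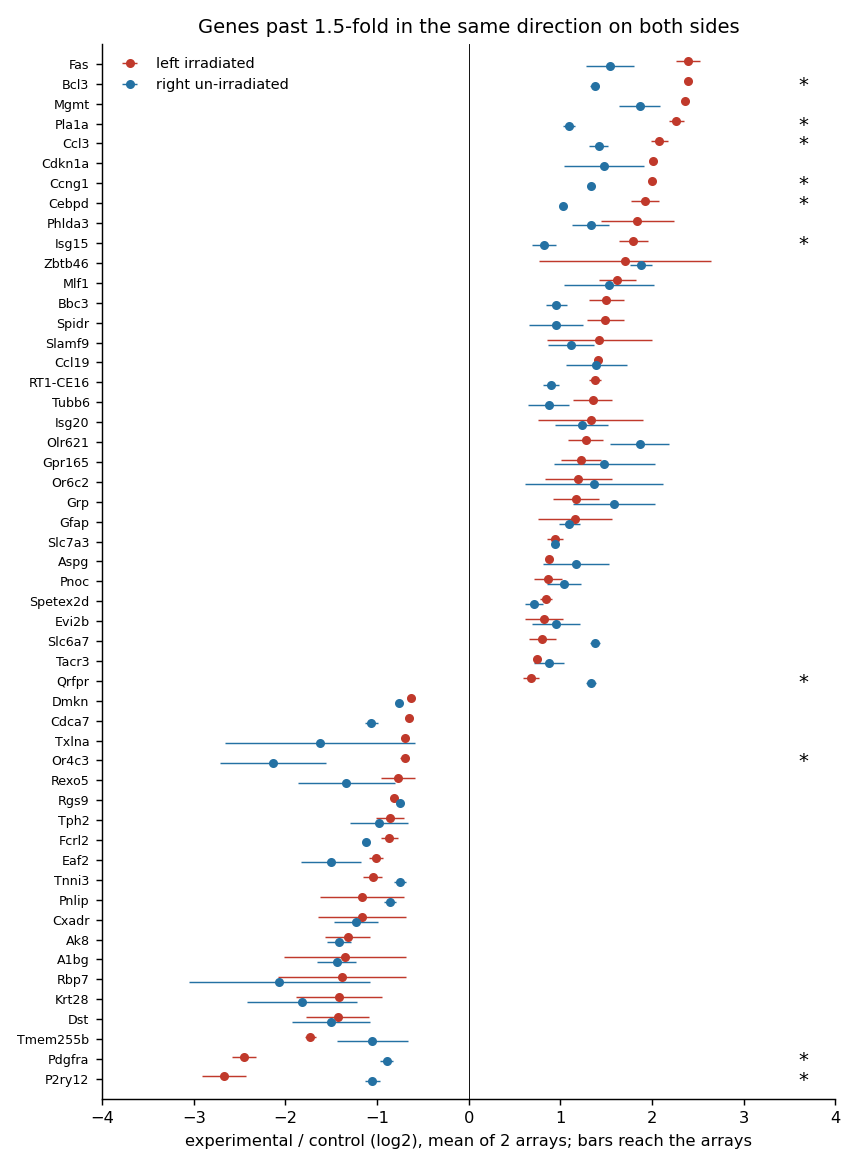
Genes past 1.5-fold from control in the same direction on both sides, with left values in red above right values in blue (log2 of experimental over control, mean of 2 arrays, bars reaching to the arrays). Asterisks mark the genes whose difference between sides also passed. Of the 32 upper genes 6 are marked as higher and 1 as lower on the left, and of the 20 lower genes 1 as higher and 2 as lower, namely Pdgfra and P2ry12.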

How the data were processed

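RNA of 2 sides was measured on Agilent rat arrays with Cy3 and Cy5, and the authors extracted the data with Agilent Feature Extraction 8.1, per the submitters' processing notes. The deposited table was taken to hold each feature's log10 ratio of red to green, and log2 values were made from it with a factor of 3.3219. No direction, base or centring is stated with the table. As deposited (log10), the median was 0.00418 for left array 1, 0.00444 for left array 2, 0.00832 for right array 1 and 0.0111 for right array 2. Extraction settings are not given. Spot intensities were not used, so brightness and saturation are unknown, and precision is limited by the small number of arrays.

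Of 43628 features, 23535 had 1 gene in GEO's platform annotation, 48 had several and 20045 had none. Symbols were updated through the RefSeq table, which matched 23488 features, and probes of a gene were averaged, which gave 14878 genes, 9224 of them with 1 probe. Start-site sequences are RefSeq's (GRCr8).

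No statistical test was made between sides, since each side has 1 replicate. Named genes were the 15 in each direction with the largest smaller-of-the-2 difference. Added to these were the 10 in each direction among genes with several probes, all differing in the same direction. Also named were the 6 in each class past 1.5-fold on both sides, any list member past the criterion, and the first 4 measured members of a list. Gene sets and lists were chosen with earlier results of these data known. Qrfpr, Alox12b and Cnmd were named after their values were seen. Alternatives were single orientations, opposite pairing, unturned signs, centring, scaling, median over probes, RefSeq mRNA probes and a 2-fold threshold. The code that makes the calls was checked on simulated arrays with known differences. Python 3.11.15, pandas 2.3.3, numpy 2.4.6 and matplotlib 3.10.9 were used.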

Additional observations from a re-analysis of the deposited data

Results flagged for a closer look

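For 11 genes the irradiated left striatum was past 1.5-fold from control in one direction on both of its arrays and the un-irradiated right striatum was past it in the opposite direction on both of its arrays. With 1 replicate per side the difference was not tested. Higher on the left were Fam50b (3.88), Cyp3a23-3a1 (3.64), Alox12b (2.6), Akr1c2 (2.18) and Ggta1 (1.68). Lower on the left were Or10d5j (-3.16), Madcam1 (-2.8), Bpifb3 (-2.56), Ogn (-1.83), Gjb2 (-1.63) and Cnmd (-1.43). Alox12b, an epidermal lipoxygenase, averaged 0.97 on the left and -1.63 on the right, and Cnmd (chondromodulin), a cartilage protein, -0.74 on the left and 0.69 on the right. Ggta1 and Ogn were the members with several probes that all differed in the same direction. How far related sequences share probe signal in Or10d5j, Akr1c2 and Cyp3a23-3a1 was not tested.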

How the results depend on the processing

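With 1 orientation alone more genes were past 1.5-fold, 1344 higher and 1522 lower on the left in the Cy5 pair and 2060 and 1329 in the Cy3 pair. Pairing arrays of opposite dye orientation gave 228 higher genes, 105 of them among the 386, and 249 lower ones, 152 of them among the 336. The 2-fold threshold left 114 higher and 105 lower. Median over probes, centring, scaling and RefSeq mRNA probes alone kept both counts within 1.5 times. The counts of list members were recomputed under the same alternatives after the values were seen. The 9 higher interferon genes became 15 in the Cy3 pair, 3 with opposite pairing, 2 with values read as already turned and 1 at 2-fold. The 10 lower cortical markers became 16 in the Cy3 pair, 1 with values read as already turned and 5 at 2-fold, and the 10 lower meningeal markers became 18 in the Cy5 pair, 1 with values read as already turned and 5 at 2-fold.

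Of 109 named genes that passed, 72 still passed with opposite pairing, 45 at 2-fold and 101 with arrays scaled. With RefSeq mRNA probes alone 93 of 104 did, and Lcn2 (0.46) and Perp (-0.42) changed sign. If the deposited values were already turned, a gene's difference becomes the distance given after ±, with a sign, by construction. Then 277 genes were higher and 380 lower on the left over all genes, 0 of them among the 386 and the 336, 0 of the 109 passed and 54 had the opposite sign, and 22 of 36 list medians changed sign. Those values were Adamts1 -0.43, Aldh1a2 0.44, Alox12b -0.88, Bcl3 -0.06, Bgn 0.05, Bhlhe22 0.15, Bpifb3 0.60, Bub1b 0.15, Cartpt -0.01, Ccl2 -0.72, Ccl3 -0.01, Ccl7 -0.62, Cebpd -0.18 and Chst9 0.10. Others were Cnmd 0.09, Col1a1 0.03, Cyp19a1 -0.28, Cyp3a23-3a1 -0.09, Emp1 -0.92, Foxc1 0.42, Gabbr2 0.05, Gabrr1 0.07, Gbp2 -0.11, Ggta1 -0.09, Gjb6 0.08, Hrk 0.03, Ifih1 -0.55 and Igf2 0.05. Then came Igtp -0.22, Il15 0.32, Isg15 -0.03, Kcnk2 -0.48, Kif20b -0.13, Lama4 0.04, Lhx2 0.04, Maip1 -0.10, Neu4 0.03, Nts -0.02, Or4c3 -0.62, P2ry12 0.32, Parp9 -0.20 and Pcdhb12 -0.32. Further values were Pdgfra 0.06, Pla1a -0.02, Pmch -0.05, Ptgds 0.01, Pvalb 0.08, Rarb -0.38, Sox17 0.39, Sox8 0.26, Tnfrsf1a -0.01, Tnfsf9 -0.57, Traf1 -0.05 and Usp18 -0.07.

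No paired analysis was possible because each side has 1 replicate number and no test. No replicate was left out for the same reason. With 4 arrays, 1 pair of RNAs per side and no spot intensities, variation between animals and signal over background are unknown here.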

Other observations

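Of 52 matrix and protease genes 2 were higher on the left (3.85%) and 1 lower (1.92%), near the 2.59% and 2.26% of all genes. The protease Adamts1, which cuts proteoglycans, stood at 2.26 and 1.26 on left arrays 1 and 2, against 1.53 and -0.32 on right arrays 1 and 2, a difference of 1.16 ± 0.42. Thrombospondin 1 (Thbs1), an astrocyte-secreted matrix protein, was higher on the left at 0.93 ± 0.15 and the laminin subunit Lama4 lower at -0.67 ± 0.04. Lama4 stood at 0.30 and -0.65 on the left, against 0.93 and 0.06 on the right, so its arrays overlapped between sides. The trophic factor Bdnf, which striatal neurons receive from cortex, differed by -1.17 ± 0.82 and Ntf3 by -0.75 ± 0.47. Neither passed, and of 43 growth factors 0 were higher and 2 lower (4.65%), beside 2.59% and 2.26% of all genes. The lower ones include Nrn1, already counted among the cortical markers.

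Of 36 markers of thalamus, septum, hypothalamus and pituitary 3 were higher (8.33%) and 5 lower (13.9%) on the left, beside 2.59% and 2.26% of all genes. Aromatase (Cyp19a1) stood at -0.78 and 0.16 on the left, against -2.12 and -1.74 on the right, a difference of 1.62 ± 0.28. Synpo2, an actin-binding protein, stood at -1.53 and -1.16 on the left, against -0.33 and -0.07 on the right, a difference of -1.14 ± 0.06. Genes of cholesterol synthesis and uptake passed in 0 of 30 members, beside 4.85% of all genes in either direction. Their median was -0.11, with 24 of 30 below the right value.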
